A study of Mus musculus with 10 samples.

Results

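The insulin-like growth factor (IGF) family of the uterus was followed through 10 genes, the ligands *Igf1* and *Igf2*, the receptors *Igf1r* and *Igf2r* and the binding proteins *Igfbp1* to *Igfbp6*. They were found by symbol among the 45706 genes of the count table, and all 10 were present. The study sequenced uteri at gestation day (GD) 3.5, shortly before implantation, from 5 females of genotype Arid1a f/f (control) and 5 of genotype Ltf iCre/+ Arid1a f/f (here Cre-positive). All 10 were adults of a mixed background of C57BL/6 with 129S6/SvEvTac, 129P2/OlaHsd and 129S1/SvImJ that carried the floxed *Arid1a* alleles and had been mated with wildtype males. In the Cre-positive females the lactoferrin locus drives the recombinase, which removes *Arid1a*, a subunit gene of the SWI/SNF chromatin remodelling complex, from the endometrial epithelium once the females are mature. The paper adds that this Cre is reported to be active also in neutrophils and other cells of the myeloid lineage. It could not exclude a part of *Arid1a* deletion in those cells. RNA came from whole uterine tissue, so epithelium, stroma, muscle, vessels and leukocytes are mixed, and in such a sample fewer cells of a type and less RNA per cell cannot be told apart.

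IGF1 is made mainly by uterine stroma under estrogen and acts on the epithelium through the IGF1 receptor, a tyrosine kinase that signals through insulin receptor substrates, PI3K and AKT and promotes epithelial growth. IGF2 shares this receptor and is taken up and degraded through the second receptor, IGF2R, which is not a tyrosine kinase. The binding proteins hold IGFs in blood and matrix, lengthen their life and limit or deliver them to the receptor, and proteases such as PAPP-A release the ligand by cutting the binding protein.

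Libraries held between 59296537 and 72702411 counts, and 3 counts corresponded to 0.0418 to 0.0507 CPM, which are counts scaled to a common library size. Of 25146 genes tested with edgeR's quasi-likelihood test, 9.70% passed a Benjamini-Hochberg adjusted p of 0.05, with 5.19% higher and 4.51% lower in the Cre-positive group, and in 10.7% the genotypes did not overlap (5.16% with the Cre-positive uteri below and 5.53% above). *Arid1a* itself had 213 ± 22.9 CPM in controls and 185 ± 15.9 CPM in Cre-positive uteri (SD, n = 5 each), with an edgeR adjusted p of 0.201, and 4 of the 5 lay below every control. Epithelium markers (8 genes) summed to 784 to 1048 CPM in controls and 1127 to 2187 CPM in Cre-positive uteri, with 6 genes higher by the edgeR test. The sum of 6 gland markers was 76.0 to 122 CPM against 13.2 to 50.3 CPM, with 1 gene (*Foxa2*) lower by the edgeR test and *Prss28* and *Prss29* at or near 0 in both genotypes. Defining markers of stroma, muscle and endothelium were present in every library. The sum of 8 myometrium markers was 8269 to 14260 CPM in controls and 4751 to 11380 CPM in Cre-positive uteri, with overlap. All 8 had a negative log2 fold change, and 0 passed the edgeR test. Macrophage markers (9 genes) summed to 229 to 378 CPM and 311 to 821 CPM, with overlap. Of these 8 had a positive and 1 a negative log2 fold change, and 0 passed the edgeR test. Neutrophil markers summed to 17.2 to 34.9 CPM in controls and 932 CPM in Cre-positive replicate 5, against at most 33.4 CPM in the other 4.

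Among the 10 IGF genes, *Igfbp3* and *Igfbp6* were lower in Cre-positive uteri and none was higher. *Igfbp3* fell to 40.7% and *Igfbp6* to 63.5% of the control mean. The ligands *Igf1* and *Igf2* stood at 66.7% and 68.3% of controls without passing the test, and the receptors, *Igfbp2*, *Igfbp4* and *Igfbp5* did not pass either. *Igfbp1* was hardly detected. Of the 9 genes with enough counts to be tested, each passed the filter in both genotypes, and 2 (*Igfbp3*, *Igfbp6*) passed the edgeR threshold, both downward, beside 4.51% of all tested genes in that direction. The genotypes did not overlap for the same 2 genes, beside 5.16% of all tested genes in that direction and 5.53% in the other. The median log2 fold change of the 9 was -0.18, and that of all tested genes was 0.03. No IGF gene rose by edgeR or by DESeq2, beside 5.19% of all tested genes by edgeR and 2131 of 25146 by DESeq2. Among 9 genes a count of 0 is near these shares.

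**Figure D1:**
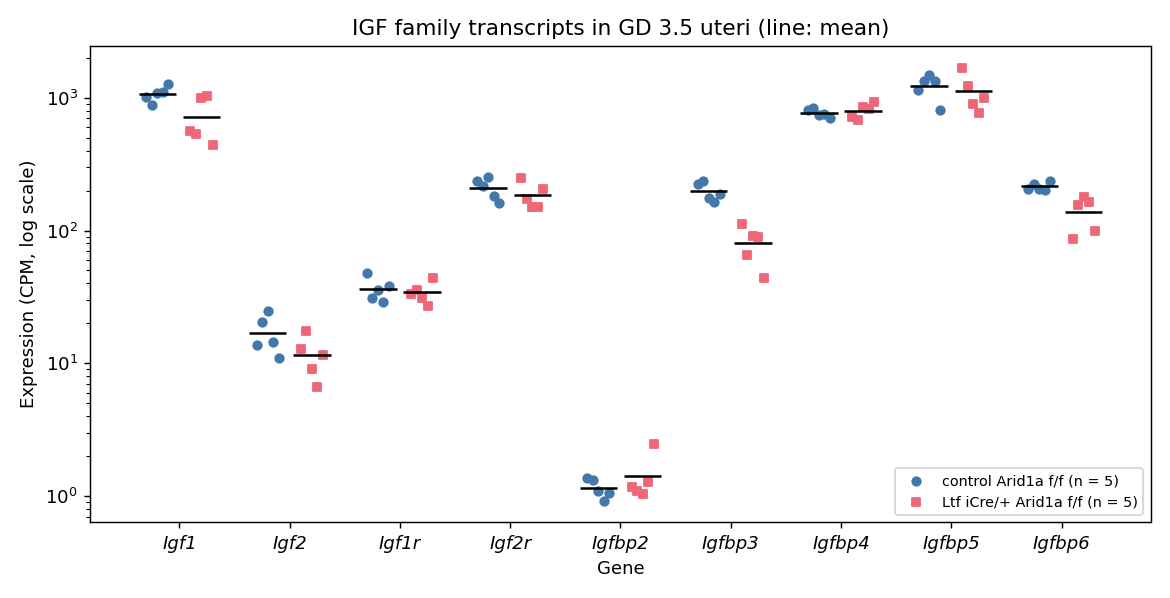
Expression of the 9 tested IGF family genes in each uterus, in CPM on a log axis. Circles are the 5 control uteri, squares the 5 Cre-positive (Ltf iCre/+ Arid1a f/f) uteri and lines the means. *Igfbp3* and *Igfbp6* are the 2 genes whose genotypes do not overlap.

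*Igf1* (ENSMUSG00000020053, chromosome 10 of GRCm38, 87858265 to 87937042) was the main ligand transcript. Its levels in control replicates 1 to 5 were 1006, 887, 1086, 1097 and 1266 CPM. In Cre-positive replicates 1 to 5 they were 561, 537, 996, 1027 and 443 CPM. Replicates 1, 2 and 5 thus lay well below every control, while replicates 3 and 4 lay inside the control range. The log2 fold change was -0.58 (standard error 0.23, 95% interval -1.09 to -0.07), with an edgeR p of 0.0282 before and 0.137 after adjustment, a DESeq2 adjusted p of 0.0709 and a two-sided exact permutation p of 0.0556. *Igf1os*, an antisense gene, overlaps *Igf1* without sharing exon bases.

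*Igf2* (ENSMUSG00000048583, chromosome 7, 142650766 to 142666816), an imprinted gene and the main fetal IGF, was a minor transcript here. It ranged from 10.9 to 24.9 CPM in controls (median 14.5) and from 6.57 to 17.6 CPM in Cre-positive uteri (median 11.6), and 2 of the latter lay below every control. The log2 fold change of -0.55 had a wide interval (-1.16 to 0.06, edgeR adjusted p = 0.238, exact permutation p = 0.127). Per kilobase of exon, *Igf1* made up 97.3 ± 1.04% of the ligand transcripts in controls and 96.8 ± 1.83% in Cre-positive uteri (SD, n = 5 each). In GENCODE M21 the *Igf2* exons share 3596 bases with the gene model *Gm49394* on the same strand and 98 with the antisense gene *Igf2os*, so its counts may lack or include reads of these models.

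The receptors differed by less than the spread between uteri. *Igf1r* (ENSMUSG00000005533, chromosome 7, 67952827 to 68233668), the signalling receptor, had 29.1 to 47.9 CPM in controls and 27.0 to 43.6 CPM in Cre-positive uteri. Its log2 fold change was -0.09 (95% interval -0.43 to 0.25, edgeR adjusted p = 0.772). *Igf2r* (ENSMUSG00000023830, chromosome 17, 12682406 to 12769664), which also carries mannose 6-phosphate tagged enzymes to lysosomes, had 162 to 255 CPM and 150 to 248 CPM. The difference of -0.18 on the log2 scale had an interval from -0.54 to 0.18 (edgeR adjusted p = 0.549). The antisense RNA *Airn* starts inside *Igf2r* and shares no exon base with it.

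The start regions of the 2 genes that fell and of *Igfbp4*, a strongly expressed gene of the family that did not pass the test, are shown from RefSeq (GRCm38.p6), with 250 bases before and 50 after the RefSeq start site and CpG dinucleotides in capitals.
Igfbp3 (chr11:7213874-7214173, minus strand): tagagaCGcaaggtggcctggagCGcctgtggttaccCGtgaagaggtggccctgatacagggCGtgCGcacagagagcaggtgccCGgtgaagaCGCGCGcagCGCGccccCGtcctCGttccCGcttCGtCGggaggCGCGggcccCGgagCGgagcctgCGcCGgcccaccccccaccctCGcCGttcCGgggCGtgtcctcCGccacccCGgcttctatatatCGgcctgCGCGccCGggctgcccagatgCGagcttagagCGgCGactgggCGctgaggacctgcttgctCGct
Igfbp6 (chr15:102143936-102144235, plus strand): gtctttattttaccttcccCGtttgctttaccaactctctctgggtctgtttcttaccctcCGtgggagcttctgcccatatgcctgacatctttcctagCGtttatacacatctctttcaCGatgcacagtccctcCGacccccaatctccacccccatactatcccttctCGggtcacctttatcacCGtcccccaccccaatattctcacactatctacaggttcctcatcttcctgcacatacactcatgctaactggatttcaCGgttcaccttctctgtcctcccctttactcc
Igfbp4 (chr11:99040994-99041293, plus strand): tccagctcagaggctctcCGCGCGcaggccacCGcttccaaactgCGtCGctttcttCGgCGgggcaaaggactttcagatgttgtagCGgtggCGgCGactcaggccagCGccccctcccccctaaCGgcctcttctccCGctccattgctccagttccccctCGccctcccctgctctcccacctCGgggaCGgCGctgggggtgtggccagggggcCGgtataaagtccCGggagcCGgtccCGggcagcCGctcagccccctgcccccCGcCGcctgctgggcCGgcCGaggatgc
The window of *Igfbp3* held 37 CpG and that of *Igfbp4* 27, while the window of *Igfbp6* held 8, against a median of 7 over 32851 windows of the same length. Thus 5.58% of windows held at least as many CpG as *Igfbp3* and 48.6% at least as many as *Igfbp6*, and the genes that fell did not share this feature. The GENCODE start of *Igfbp6* lies 176 bases downstream of the RefSeq start, and those of *Igfbp3* and *Igfbp4* coincide. Both strands were searched for the TATA box as TATAAA, which 13.6% of all windows hold, the GC box as GGGCGG (35.7% of windows), the AP-1 site as TGACTCA (5.20%) and the palindromic estrogen response element (0.0700%), and no 2 of these motifs overlap in the windows shown. *Igfbp4* held TATAAA on its own strand, 28 bases before its start. *Igfbp6* held it only on the opposite strand (printed as tttata), 148 bases before the RefSeq start. The *Igfbp3* window held none of the 4 motifs. A match or its absence describes these letters only.

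*Igfbp3* (ENSMUSG00000020427, chromosome 11, 7206086 to 7213923), whose CpG-rich start region is printed above, encodes the chief IGF carrier of blood. Control replicates 1 to 5 had 224, 236, 176, 165 and 190 CPM of *Igfbp3*. Cre-positive replicates 1 to 5 had 112, 65.6, 91.0, 89.7 and 44.2 CPM. The highest of these was below the lowest control, and replicate 5 was the lowest of all. The log2 fold change was -1.30 (standard error 0.22, 95% interval -1.77 to -0.82, edgeR adjusted p = 0.00523), a 2.46-fold lower level. The exact permutation p was 0.00794, the smallest that 5 uteri against 5 can give. When any 1 uterus was omitted, *Igfbp3* kept a log2 fold change between -1.45 and -1.14 and passed edgeR's threshold in 10 of 10 fits.

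*Igfbp6* (ENSMUSG00000023046, chromosome 15, 102144362 to 102149511) encodes a binding protein that prefers IGF2. Its control levels were 206, 226, 205, 202 and 238 CPM in replicates 1 to 5, a narrow range. In Cre-positive replicates 1 to 5 they were 85.6, 157, 179, 164 and 99.2 CPM, all below the controls, with replicates 1 and 5 the lowest. The log2 fold change was -0.65 (standard error 0.19, 95% interval -1.07 to -0.24, edgeR adjusted p = 0.0493, DESeq2 adjusted p = 0.0106, exact permutation p = 0.00794). The call was close to the threshold. It held in 1 of 10 fits that each left out a uterus, the fit without Cre-positive replicate 3 (adjusted p from 0.0306 to 0.103, log2 fold change from -0.77 to -0.53), and with the replicate number as a block the adjusted p was 0.0639. Against the control mean, *Igfbp6* stood at -1.33 in replicate 1 and -1.11 in replicate 5 on the log2 scale and between -0.46 and -0.27 in the other Cre-positive uteri. Replicates 1 and 5 also had the highest sums of epithelium markers in this genotype, 2187 and 1577 CPM against 1127 to 1391 CPM, and the part of epithelium in the *Igfbp6* difference was not tested.

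*Igfbp4* (ENSMUSG00000017493, chromosome 11, 99041244 to 99054392), whose protein is a substrate of PAPP-A, had 706 to 834 CPM in controls and 685 to 927 CPM in Cre-positive uteri. Its log2 fold change was 0.06 (95% interval -0.17 to 0.29, edgeR adjusted p = 0.787), the narrowest interval of the family. *Igfbp5* (ENSMUSG00000026185, chromosome 1, 72857932 to 72874884), a binding protein that also attaches to extracellular matrix, had 807 to 1474 CPM and 771 to 1688 CPM. Its log2 fold change was -0.13 (95% interval -0.61 to 0.36, edgeR adjusted p = 0.770). For *Igfbp4* and *Igfbp5* the genotypes overlapped over most of their range. *Igfbp2* (ENSMUSG00000039323, chromosome 1, 72824503 to 72852474) was low, at 0.923 to 1.36 CPM in controls and 1.03 to 2.47 CPM in Cre-positive uteri, with a log2 fold change of 0.30 (edgeR adjusted p = 0.548). The value of 2.47 CPM belonged to replicate 5, the uterus with the high neutrophil markers, and the log2 fold change without it was -0.01.

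*Igfbp1* (ENSMUSG00000020429, chromosome 11, 7197782 to 7202546), known as a product of the human decidua and of liver, had 4 counts in control replicate 2, 2 counts in Cre-positive replicate 1 and 0 in the other 8 libraries. At this depth it could not be compared. It lies tail to tail with *Igfbp3*, with 3539 bases between the genes, and *Igfbp2* and *Igfbp5* form a similar pair on chromosome 1 with 5457 bases between them. In each pair a barely or weakly expressed gene stood beside a strongly expressed one.

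Divided by the length of the merged exons, the order of the control levels was *Igfbp5* (203 ± 43.1 CPM per kb), *Igfbp6* (194 ± 14.1), *Igfbp4* (174 ± 11.6), *Igf1* (108 ± 14.0), *Igfbp3* (63.3 ± 9.78), *Igf2r* (22.6 ± 4.12), *Igf2* (2.94 ± 0.982), *Igf1r* (2.16 ± 0.440), *Igfbp2* (0.621 ± 0.0984) and *Igfbp1* (SD, n = 5). The ranges of neighbours overlapped among the first 3 and between *Igf2* and *Igf1r*, and were apart elsewhere. In Cre-positive uteri *Igfbp6* came after *Igfbp5* and *Igfbp4*, at 123 ± 37.4 CPM per kb, and *Igfbp3*, at 25.8 ± 8.38, overlapped with *Igf2r*, at 19.96 ± 4.48. As a share of the 6 binding protein transcripts per kilobase, *Igfbp3* made up 9.98 ± 1.37% in controls and 4.94 ± 1.44% in Cre-positive uteri. *Igfbp4* made up 27.4 ± 1.21% and 35.3 ± 6.01%, *Igfbp5* 31.8 ± 5.36% and 35.7 ± 9.74%, and *Igfbp6* 30.7 ± 3.88% and 23.9 ± 7.37% (SD, n = 5 each). The shares of *Igfbp3* did not overlap between genotypes and those of *Igfbp4* did not either, although without division by length the *Igfbp4* shares overlapped. Without that division *Igfbp5* made up 50.3% in controls and 51.4% in Cre-positive uteri, and *Igfbp6* 9.11% and 6.63%. Shares add up to a whole, so a lower share of *Igfbp3* raises the others, and no test was made of them.

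**Figure D2:**
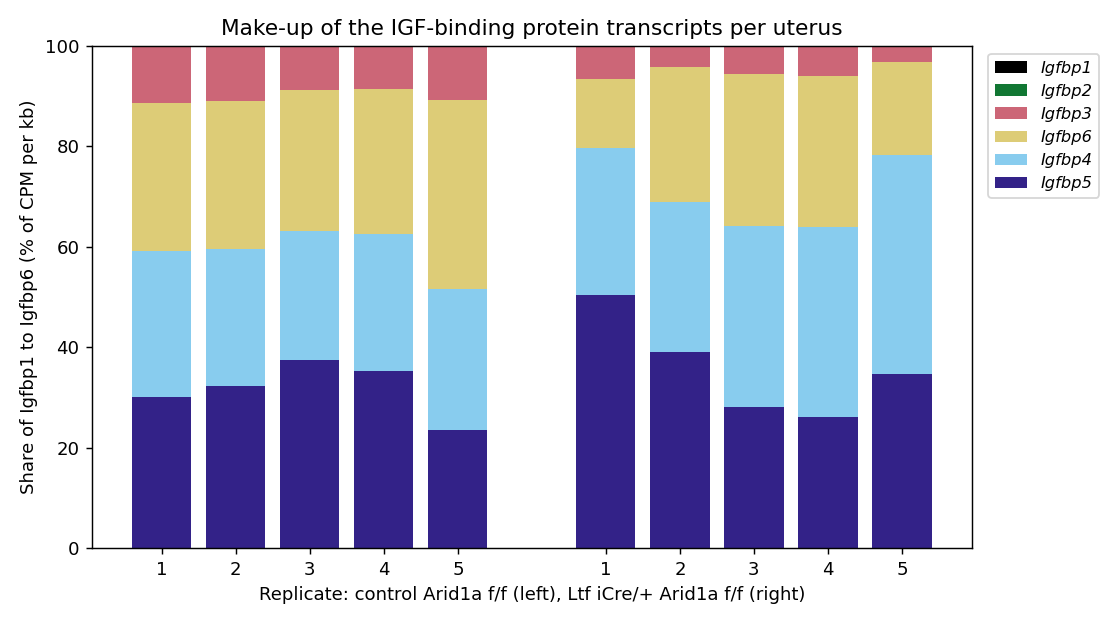
Share of each binding protein gene among *Igfbp1* to *Igfbp6* in each uterus, as a percent of CPM per kilobase of merged exons, with the 5 controls on the left and the 5 Cre-positive uteri on the right. *Igfbp4*, *Igfbp5* and *Igfbp6* fill most of every bar, the *Igfbp3* segment averages 9.98% in controls and 4.94% in Cre-positive uteri, and *Igfbp1* and *Igfbp2* are too small to see.

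Of 43 other genes of IGF signalling and its uterine setting, 5 passed the edgeR threshold, 2 higher and 3 lower, beside 9.70% of all genes, and their median log2 fold change was -0.11. *Igfbp7* (ENSMUSG00000036256, chromosome 5), a related secreted protein with low affinity for IGF that is abundant in vessels, also fell. It had 540, 663, 567, 533 and 517 CPM in control replicates 1 to 5 and 373, 393, 410.0, 356 and 372 CPM in Cre-positive replicates 1 to 5, which do not overlap and vary little within a genotype. The log2 fold change of *Igfbp7* was -0.57 (standard error 0.09, edgeR adjusted p = 0.00476). Its exons share 85 bases with *Polr2b* on the opposite strand. *Igfals*, the acid-labile subunit of the circulating complex, was near the detection limit, at 3 to 23 counts per library (edgeR adjusted p = 0.957).

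Among 6 genes of binding protein proteases and their inhibitors, 1 rose and 0 fell by edgeR (1 had an unadjusted p under 0.05 downward, and 1 fell by DESeq2). DESeq2 called 1972 of all 25146 tested genes lower. *Stc2* (ENSMUSG00000020303, chromosome 11), stanniocalcin 2, an inhibitor of PAPP-A, rose from 14.6 ± 2.92 to 42.1 ± 28.1 CPM (SD, n = 5 each). It had 12.7 to 19.8 CPM in controls and 56.2, 27.2, 19.9, 22.1 and 85.1 CPM in Cre-positive replicates 1 to 5, so that replicates 1 and 5 were again the farthest from controls. The log2 fold change of *Stc2* was 1.52 (standard error 0.38, edgeR adjusted p = 0.0284), and it passed in 5 of 10 fits that each left out a uterus (adjusted p from 0.0163 to 0.0736), missing the threshold without any 1 of control replicates 2, 3, 4 and 5 or Cre-positive replicate 1. *Htra1*, a serine protease, had a log2 fold change of 0.22 (edgeR adjusted p = 0.336).

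Of 9 genes of the insulin receptor family and its adaptors, 0 passed by edgeR (1 had an unadjusted p under 0.05 and 1 passed with DESeq2, each downward). The most expressed were *Grb10*, an imprinted adaptor that restrains the receptor, at -0.23 on the log2 scale (edgeR adjusted p = 0.230), and *Irs1*, a docking protein, at -0.06 (edgeR adjusted p = 0.906), whose exons overlap an opposite-strand gene model over 2822 bases. In the PI3K, AKT and FOXO arm, 1 of 14 genes fell and 0 rose by edgeR, beside 4.51% and 5.19% of all tested genes. The median log2 fold change of the arm was -0.15. *Tsc1*, part of the complex that holds back mTOR, fell from 84.0 ± 6.38 to 60.8 ± 5.35 CPM (SD, n = 5 each), or -0.47 on the log2 scale (standard error 0.08, edgeR adjusted p = 0.00700). *Pik3r1*, a regulatory subunit of PI3K and the most expressed gene of this arm, had 390 ± 36.0 CPM in controls and 352 ± 63.3 CPM in Cre-positive uteri (SD, n = 5 each), or -0.15 on the log2 scale (edgeR adjusted p = 0.518). At an unadjusted p under 0.05, 3 genes of this arm were lower and 0 higher, and the share over all genes is not given here. With DESeq2 2 were lower and 0 higher, where over all 25146 tested genes 1972 were lower and 2131 higher. The second gene lower with DESeq2 was *Tsc2*, the partner of *Tsc1* (DESeq2 adjusted p = 0.0126, edgeR adjusted p = 0.0696, named after its values were seen). Of the 5 genes of the *Igf2* locus and the IGF2 mRNA-binding proteins, 1 rose and 0 fell by edgeR, beside 5.19% and 4.51% of all tested genes. This gene, *Igf2bp2*, went from 17.1 ± 2.35 to 32.5 ± 10.1 CPM, by 0.93 on the log2 scale (standard error 0.19, edgeR adjusted p = 0.0143). Its genotypes did not overlap, beside 5.53% of all tested genes with the Cre-positive uteri above. *H19*, the imprinted noncoding RNA next to *Igf2*, had 14.2 to 62.2 CPM over the 10 uteri (log2 fold change -0.41, edgeR adjusted p = 0.586). Of 6 hormone receptor and stromal regulator genes, 1 fell and 0 rose by edgeR, beside 4.51% and 5.19% of all tested genes. *Klf9*, a transcription factor that works with the progesterone receptor, fell by 0.49 on the log2 scale (edgeR adjusted p = 0.0361, and 0.0548 to 0.0854 without any 1 of control replicates 1 to 4 or Cre-positive replicates 1 and 3). *Esr1*, the estrogen receptor gene, had -0.25 (edgeR adjusted p = 0.378).

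**Figure D3:**
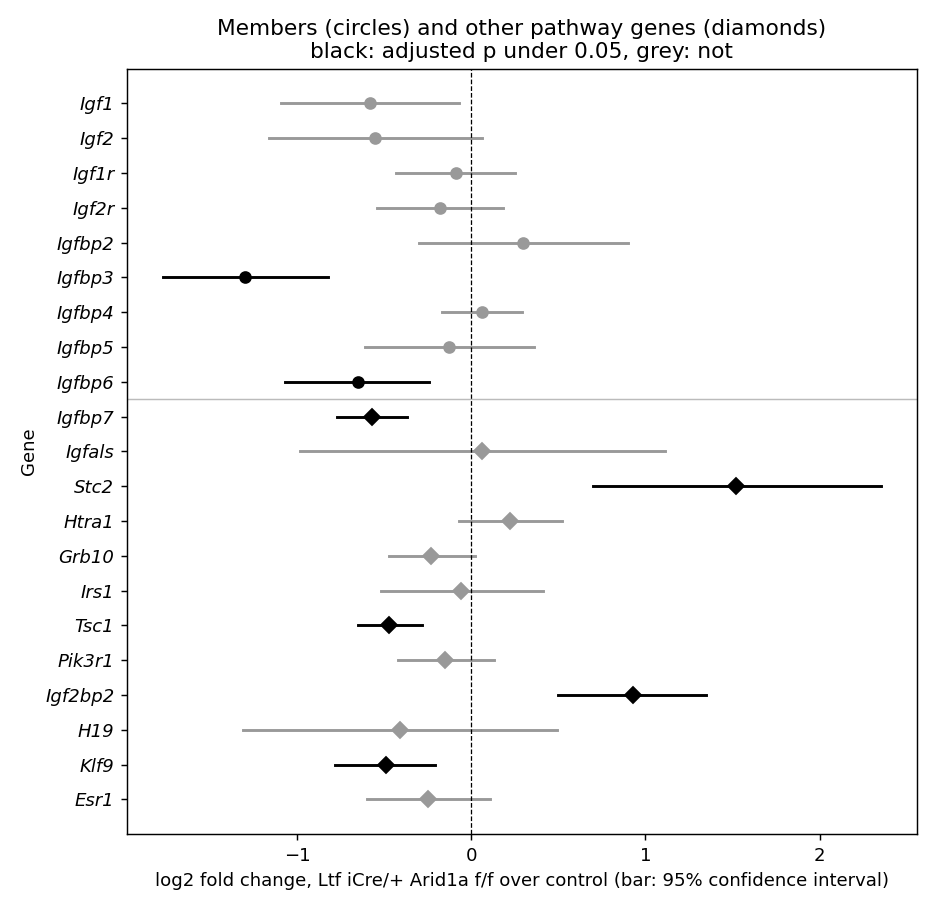
Log2 fold change of Cre-positive over control uteri with its 95% interval from edgeR, for the 9 tested IGF family genes (circles, above the line) and 12 other pathway genes (diamonds). Black marks an adjusted p under 0.05, as for *Igfbp3* (-1.30), *Igfbp7* (-0.57) and *Stc2* (1.52), and the interval of *Igf1* (-1.09 to -0.07) is wide.

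The sum of vessel markers was also lower in Cre-positive uteri. The 8 endothelium markers summed to 788 to 1062 CPM in controls and 403 to 549 CPM in Cre-positive uteri, without overlap, and 6 of the 8 (*Pecam1*, *Cdh5*, *Kdr*, *Tek*, *Emcn*, *Cldn5*) passed the edgeR threshold downward. Per 100 CPM of these markers, *Igfbp3* had 16.6 to 24.3 CPM in controls and 10.97 to 23.5 CPM in Cre-positive uteri. The genotypes thus overlapped on this scale, with means of 21.3 and 16.7 CPM. On the same scale *Igfbp6* had 19.3 to 30.2 CPM in controls and 17.8 to 35.6 CPM in Cre-positive uteri, also with overlap. *Igfbp7* had 53.4 to 68.1 CPM and 71.5 to 92.3 CPM per 100 CPM of the same markers, an order opposite to that of its level. The sum of 8 stroma markers, 14590 to 21680 CPM in controls and 12050 to 21730 CPM in Cre-positive uteri, overlapped. The collagens *Col1a1*, *Col1a2* and *Col3a1*, none of which passed the test, made up 71.9% to 88.8% of this sum. The other 5 markers summed to 3456 to 4366 CPM in controls and 2137 to 2883 CPM in Cre-positive uteri, without overlap. Of these 5, *Vim* and *Dcn* were lower by edgeR, and *Pdgfra* had an edgeR adjusted p of 0.0735 and a DESeq2 adjusted p of 0.0217. *Lum* and *Hand2* overlapped between genotypes (edgeR adjusted p = 0.912 and 0.331). Per 100 CPM of all 8 stroma markers *Igfbp3* did not overlap between genotypes (0.813 to 1.54 against 0.314 to 0.745 CPM). Per 100 CPM of the 5 without collagens, a scale chosen after seeing the data, it did (4.30 to 6.48 against 2.07 to 4.603 CPM). The *Igfbp3* means on that scale were 5.08 CPM in controls and 3.15 CPM in Cre-positive uteri. The genotypes also overlapped per 100 CPM of *Vim* (means 17.75 and 14.4 CPM) or of *Pdgfra* (means 34.4 and 26.6 CPM). These single-gene scales were not set beforehand either. *Vim* and *Pdgfra* had the lowest log2 fold changes of the 8 stroma markers (-0.94 and -0.7), and the other 6 ran from -0.65 to 0.33. Dividing by a marker that is itself lower makes the *Igfbp3* difference smaller. On the scale of all 8 stroma markers *Igf1* had a mean of 6.34 CPM in controls and 4.82 CPM in Cre-positive uteri, with overlap. *Igfbp6* had means of 1.27 and 0.908 CPM on that scale, also with overlap. On the scale without collagens *Igf1* had a mean of 27.2 CPM in controls and 27.8 CPM in Cre-positive uteri (ranges 21.6 to 29.1 and 18.6 to 41.4). *Igfbp6* there had 5.48 and 5.29 CPM (ranges 5.24 to 5.97 and 3.50 to 6.61). The part of these markers in the differences of *Igf1*, *Igfbp3* and *Igfbp6* was not tested.

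**Figure D4:**
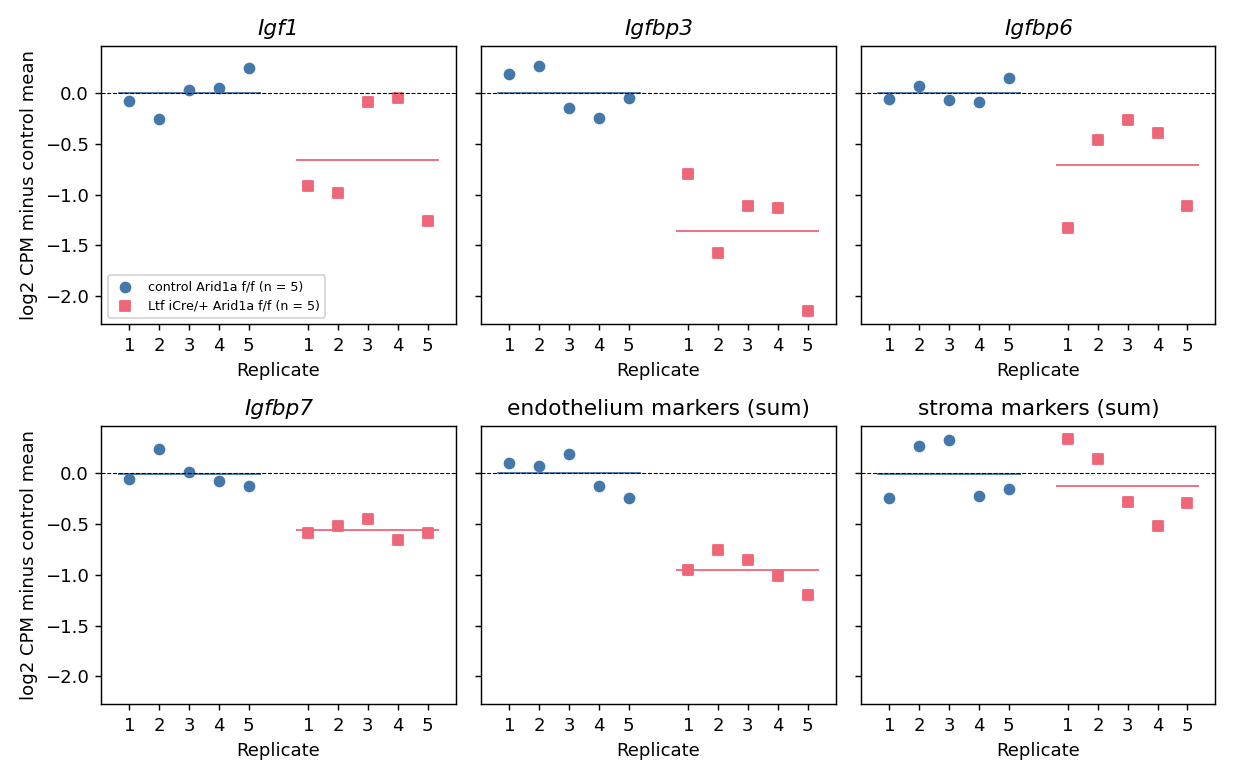
Each uterus as log2 CPM minus the control mean, for *Igf1*, *Igfbp3*, *Igfbp6*, *Igfbp7* and the summed endothelium and stroma markers. Circles are controls, squares Cre-positive uteri, solid lines group means and the dashed line the control mean. For *Igf1*, replicates 3 and 4 lie at -0.09 and -0.05 and replicates 1, 2 and 5 between -1.26 and -0.92, while all 5 lie low for *Igfbp3*, *Igfbp7* and the endothelium sum.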

How the data were processed

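The authors prepared mRNA libraries of uterine tissue and sequenced them as read pairs. Per the labels and the study's methods, reads were trimmed with cutadapt 1.18 and Trim Galore 0.6.4, aligned to GRCm38 with STAR 2.7.3a and counted per gene. The authors deposited raw counts for 45706 Ensembl genes, without normalization or a filter. The strand setting and annotation release are not given in the sources used here. Symbols, positions and exon lengths came from GENCODE M21 (45143 identifiers matched). Genes averaging 1 or more counts per library were tested with edgeR 4.0.16 in R 4.3.3 (TMM, quasi-likelihood, genotype only, Benjamini-Hochberg over all 25146 genes, threshold 0.05). Alternatives were DESeq2 1.42.0, RLE size factors, other filters, the replicate number as a block and the omission of each uterus. CPM used TMM library sizes. For single genes, an exact two-sided permutation of the uteri on log2(CPM + 0.1) was added. The scripts were tested on simulated counts. Libraries of a genotype differed by more than sampling noise (per-gene chi-square 36.1 or more). All 10 members were named. Of each other list, genes past the threshold were named (up to 4), with the most expressed added up to 2. Some items are not reported here. The members and lists were chosen with earlier results of these data known.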

Additional observations from a re-analysis of the deposited data

Results flagged for a closer look

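Within the 5 uteri of a genotype (control, or Ltf iCre/+ Arid1a f/f, here Cre-positive), a single value stood far from the other 4 for 6 of 44 groups of IGF family and named pathway genes, and chance flags about 1 in 20 such groups. *Igfbp2* had 2.47 CPM in Cre-positive replicate 5 against 1.03 to 1.28 CPM in the others of that genotype. *Stc2* had 19.8 CPM in control replicate 1 against 12.7 to 13.8 CPM in the other controls. *Grb10* had 382 CPM in control replicate 3 against 324 to 336 CPM. *Igfals* had 0.305 CPM (21 counts) in Cre-positive replicate 4 against 0.130 to 0.147 CPM. *Igfbp1* had 0.0558 CPM (4 counts) in control replicate 2 and 0.0314 CPM (2 counts) in Cre-positive replicate 1, with 0 in the rest of each genotype, which is at the level of a few reads.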

How the results depend on the processing

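*Igfbp3* passed under each of the 15 alternatives, and *Igfbp6* in 4 of them (edgeR with RLE size factors, DESeq2, filterByExpr and without Cre-positive replicate 3). The count of IGF family genes past the threshold, 2 as reported, was therefore 1 with no filter on low counts and 1 with the replicate number as a block, and 1 to 2 with each uterus left out. The other pathway genes past the threshold, 5 as reported, numbered 8 with DESeq2 and 3 (without any 1 of control replicates 2, 3 and 4 or Cre-positive replicate 1) to 6 with each uterus left out. Over all genes DESeq2 called 4103 and the replicate block 1704, and the count ranged from 1204 (without control replicate 2) to 2381 with each uterus left out, with 1248 without control replicate 3 and 1414 without control replicate 4. Same-numbered uteri of the genotypes are not described as pairs by their labels, but the paper compared littermates where it could. Whether a shared number marks a pair is therefore unknown. For numbers 1 to 5 the correlation of the deviations of same-numbered uteri was 0.0503, 0.0927, -0.177, 0.0523 and 0.212. These 5 values cannot exclude pairing. Among the IGF family and the 12 named pathway genes, directions turned with a uterus left out for 5 that had not passed: *Igf1r* ranged from -0.19 to 0.03 (the latter without control replicate 1), *Igfbp2* from -0.01 to 0.39 and *Igfbp4* from -0.0018 to 0.11 (the lower value of each without Cre-positive replicate 5), *Igfals* from -0.25 (without Cre-positive replicate 4) to 0.44, and *Irs1* from -0.25 to 0.08 (the latter without Cre-positive replicate 5, and 0.03 without control replicate 1). In CPM without division by length, the shares of the binding proteins in controls were 8.33% for *Igfbp3*, 32.2% for *Igfbp4*, 50.3% for *Igfbp5* and 9.11% for *Igfbp6*, and in Cre-positive uteri 51.4% for *Igfbp5* and 6.63% for *Igfbp6*. A pseudocount of 1 moved no exact permutation p across 0.05. Depth limited *Igfbp1* and *Igfals*.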
